A study of Mus musculus with 30 samples.

Results

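The collagen chain genes of the mouse were followed in gastrocnemius muscle after long circadian misalignment. The members were all genes whose symbol consists of Col, a number, the letter a and a second number. The deposited tables held 44 such genes, and the 32 with a mean of over 20 reads over all mice were kept, among 12915 genes that passed the same minimum. Male wild-type C57BL/6J mice, housed singly with a running wheel, were bought at 10 weeks of age. They spent 2 weeks in a light-dark cycle and 2 weeks in constant darkness before the schedules began at 14 weeks of age. The LD group (n = 14) was then kept on a fixed cycle of 12 h light and 12 h dark, and the ADV group (n = 16) had the light cycle moved 8 h earlier every 4 days, both for 64 weeks. Poly(A) RNA of the muscle was sequenced as 1 library per mouse, and 18875468.5 to 28512674 reads per library were counted on exons. Whole muscle was used, so fewer cells of a type and less RNA per cell cannot be told apart.

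Collagens are secreted proteins built from α chains wound into a triple helix, and each chain has its own gene. Fibrillar chains (types I, III, V, XI, XXIV and XXVII) form the tension-bearing fibrils of the tissue between muscle fibers, while type IV chains form the network of the basement membrane that wraps each fiber and capillary. Type VI chains form beaded filaments beside the basement membrane, and fibril-associated chains such as type XII and type XIV sit on the surface of fibrils. In muscle, fibroblasts and related mesenchymal cells are the main source of fibrillar and type VI chains.

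The chain genes of type IV collagen lie in head-to-head pairs that share a promoter region. This region is shown here for 2 pairs, because both chains of 1 passed the test between the schedules and both chains of the other did not. A further pair, Col4a6 and Col4a5 on the X chromosome, has 1308 bases between its starts and is not shown. Of that pair, Col4a6 had too few reads to be tested, and Col4a5 did not pass. In the GRCm39 coordinates of the deposited tables, Col4a1 on the minus strand and Col4a2 on the plus strand of chromosome 8 begin at 11362826 and 11362805, so that their first 22 bases overlap. On chromosome 1, Col4a4 on the minus strand begins at 82564570 and Col4a3 on the plus strand at 82564697, which leaves 126 bases between them. The RefSeq promoter windows (GRCm38.p6, 300 bases around the start, most of them before it, written 5′ to 3′ on the gene's own strand) are given for Col4a1 (chr8:11312777-11313076, minus strand) and Col4a4 (chr1:82586800-82587099, minus strand). Capitals mark the 22 shared bases in the first and the 126 bases up to the start of Col4a3 in the second. The window of Col24a1 (chr3:145292222-145292521, plus strand), the only fibrillar chain that passed the test between groups, is given with capitals for the cyclic AMP element TGACGTCA, which begins 7 bases before the start.
Col4a1: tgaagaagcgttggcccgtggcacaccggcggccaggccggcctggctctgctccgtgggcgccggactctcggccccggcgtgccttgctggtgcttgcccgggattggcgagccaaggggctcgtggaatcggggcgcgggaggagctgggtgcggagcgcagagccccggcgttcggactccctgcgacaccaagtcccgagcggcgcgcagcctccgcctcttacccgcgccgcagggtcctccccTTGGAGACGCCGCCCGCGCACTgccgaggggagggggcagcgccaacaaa
Col4a4: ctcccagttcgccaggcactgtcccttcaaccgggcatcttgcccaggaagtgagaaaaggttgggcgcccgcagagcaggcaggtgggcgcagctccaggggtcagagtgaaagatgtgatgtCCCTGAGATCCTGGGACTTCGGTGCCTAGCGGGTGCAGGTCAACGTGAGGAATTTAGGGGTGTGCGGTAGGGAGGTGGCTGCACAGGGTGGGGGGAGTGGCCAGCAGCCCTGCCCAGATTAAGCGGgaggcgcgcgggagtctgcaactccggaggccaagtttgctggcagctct
Col24a1: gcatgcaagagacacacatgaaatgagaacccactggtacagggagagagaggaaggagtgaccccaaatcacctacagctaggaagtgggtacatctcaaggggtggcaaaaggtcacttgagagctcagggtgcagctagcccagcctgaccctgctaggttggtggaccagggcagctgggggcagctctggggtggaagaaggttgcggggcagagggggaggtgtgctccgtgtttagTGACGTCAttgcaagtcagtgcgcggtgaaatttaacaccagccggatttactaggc

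The RefSeq table held promoter windows for 26 of the 32 genes (29 windows), and none for Col1a1, Col4a3, Col5a2, Col12a1, Col14a1 and Col22a1. On either strand, TGACGTCA was found in 1 of the 26 genes, Col24a1, and in 1.79% of all 32851 windows. The E-box CACGTG, which clock transcription factors can bind, was in none of the 26 genes and in 7.15% of all windows, and the D-box TTANGTAA was in none of them and in 2.32%. The AP-1 element TGANTCA was in Col6a1 alone (7.81% of all windows). The CCAAT box, here the letters CCAAT, was in 10 of the 26 genes, among them Col1a2, Col4a1 and Col4a2, and in 37.4% of all windows. These matches describe letters in 300 bases and were not tested.

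The levels of the chains, given as FPKM (reads scaled to exon length and to the total of the library), covered a wide range. Basement membrane and fibrillar chains stood side by side at the top. Over all mice the mean level was 22.3 FPKM for Col4a1, 22.03 for Col3a1, 19.9 for Col1a2, 17.9 for Col4a2, 15.8 for Col6a1, 15.2 for Col6a2 and 9.13 for Col1a1. These 7 chains held 71.7% of the summed FPKM of the 32 genes. The order of Col4a1 (17.4 to 36.8 FPKM over mice) and Col3a1 (12.1 to 38.8 FPKM) was not the same in each mouse. Col3a1 was the higher in LD mouse 23 (38.8 against 24.3 FPKM) and the lower in LD mouse 32 (12.1 against 17.4 FPKM). This did not hold for all neighbours, since Col6a2 was above Col1a1 in every mouse. At the low end, 8 genes had a mean under 0.5 FPKM, down to 0.139 for Col11a1. The 12 genes left out for low reads had means of 0.65 (Col10a1, of hypertrophic cartilage) to 19.9 reads (Col4a6), with the cartilage chain Col2a1 at 4.02, whereas the lowest genes kept were Col11a1 at 25.2 and Col13a1 at 27.9 reads.

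**Figure D1:**
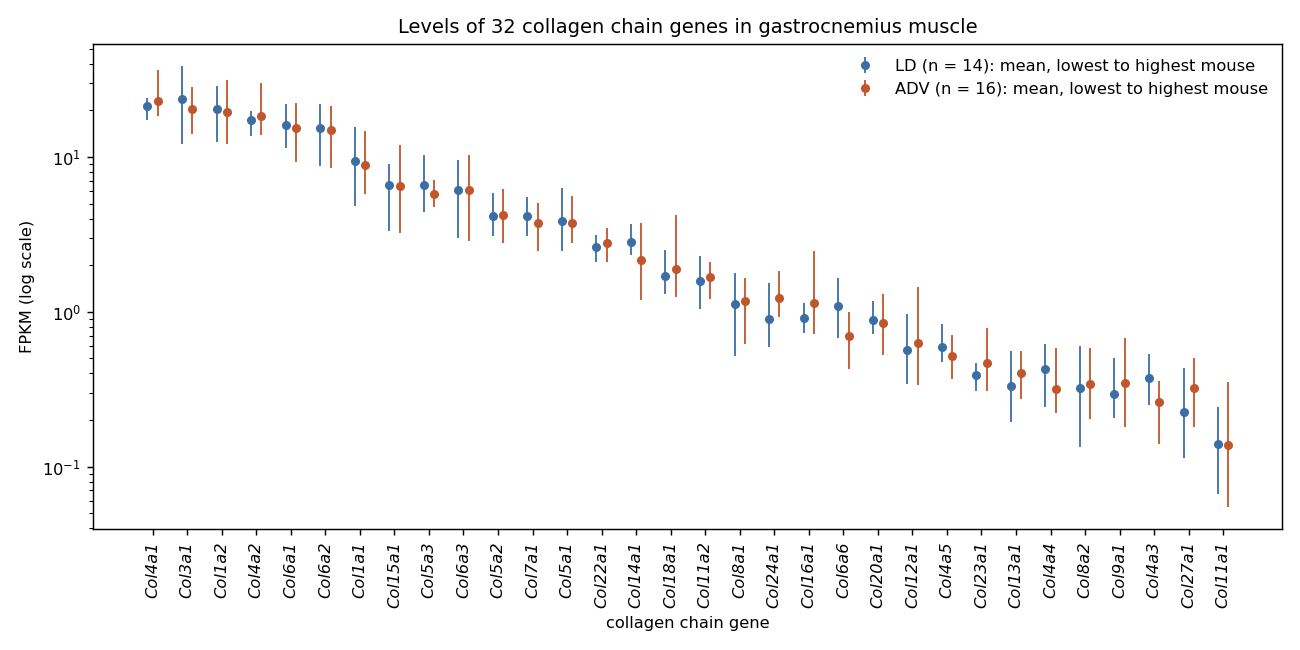
Level of each of the 32 collagen chain genes (horizontal axis, ordered by mean) in FPKM on a log scale, with a point for the mean of the LD (n = 14) or ADV (n = 16) group and a line from the lowest to the highest mouse. The groups overlapped for every gene, and the levels ran from 22.3 FPKM for Col4a1 to 0.139 FPKM for Col11a1.

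The summed level of the 32 genes was 173 ± 27.7 FPKM in the LD group (SD, n = 14, range 115 to 237) and 168 ± 29.4 FPKM in the ADV group (SD, n = 16, range 116 to 254). The groups overlapped over nearly their whole range, and the same few mice were often at the ends. LD mouse 23 (237 FPKM) had the highest level of the LD group for 19 of the 32 genes, and LD mouse 32 (115 FPKM) the lowest for 16. In the ADV group, ADV mouse 24 (254 FPKM) was highest for 19 genes and ADV mouse 31 (116 FPKM) lowest for 13. Fibrillar chains made up 40.9 ± 3.08% of the summed level in the LD group and 39.1 ± 2.12% in the ADV group, type IV chains 23.5 ± 2.79% and 25.5 ± 2.84%, and type VI chains 22.4 ± 1.36% and 22.04 ± 1.91% (SD, n = 14 and 16). Each difference was smaller than 1 SD of the mice within a group, and no test was run on these sums.

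Between the schedules, 5 chains passed the test, which for each gene asked for a false discovery rate (FDR, edgeR's quasi-likelihood test with Benjamini-Hochberg adjustment over all 12915 genes) under 0.05. Lower in the ADV group were Col6a6, a type VI chain, Col4a3 and Col4a4, chains of a basement membrane network best known from kidney and other specialised sites, and Col14a1, a fibril-associated chain. Higher was Col24a1, a minor fibrillar chain known from bone. All 5 also differed by over 1.3-fold, and they were 15.6% of the 32 genes. Among all genes tested, 2.24% were called at this FDR and fold (1.43% upward and 0.805% downward in ADV mice). At the FDR alone 10.1% were called, 5.03% upward and 5.06% downward. In no member were the groups free of overlap. The median log2 fold change (ADV against LD) was -0.03 over the 32 genes and -0.00 over all genes tested, with 14 members above 0 and 18 below.

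Col6a6 showed the largest difference in size. It forms a type VI chain that can take the place of the α3 chain in the beaded filament (chromosome 9, 105565008 to 105705359, minus strand). Its level was 0.674 to 1.65 FPKM among LD mice (median 1.14) and 0.426 to 0.994 FPKM among ADV mice (median 0.70). All 16 ADV mice lay below the LD median, although they overlapped with the lowest LD mice. The log2 fold change was -0.67 (SE 0.12, FDR 0.00164).

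Col4a3 and Col4a4 fell together. Col4a3 (chromosome 1, 82564697 to 82699780) was at 0.248 to 0.53 FPKM among LD mice (median 0.379) and 0.139 to 0.356 FPKM among ADV mice (median 0.268), with all 16 ADV mice below the LD median. Its log2 fold change was -0.53 (SE 0.13, FDR 0.0101). Col4a4 (chromosome 1, 82426144 to 82564570) was at 0.242 to 0.618 FPKM among LD mice (median 0.439) and 0.222 to 0.583 FPKM among ADV mice (median 0.301), with 14 of 16 ADV mice below the LD median and ADV mouse 35 near the top of the LD range. Its log2 fold change was -0.45 (SE 0.13, FDR 0.0257), but with no minimum on reads the FDR was 0.0522. Both levels were low, with 29 to 101 reads per mouse for Col4a3 and 54 to 174 for Col4a4. In the annotation, 11.07% of the exon bases of Col4a3 overlap genes of the other strand, mainly C430014B12Rik, which had a mean of 2.63 reads. Of these bases, 104 overlap exons of Col4a4 transcripts other than the one counted.

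Col14a1, which binds to fibrils and is known for limiting their width (chromosome 15, 55171315 to 55383599, plus strand), was at 2.32 to 3.71 FPKM among LD mice (median 2.69) and 1.20 to 3.72 FPKM among ADV mice (median 2.08). The ADV group spread further than the LD group at its lower end, and 13 of its 16 mice lay below the LD median. The log2 fold change was -0.42 (SE 0.11, FDR 0.0181).

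Col24a1 (chromosome 3, 144998233 to 145257766, plus strand) was at 0.591 to 1.54 FPKM among LD mice (median 0.864) and 0.919 to 1.84 FPKM among ADV mice (median 1.12). All 16 ADV mice lay above the LD median, and LD mouse 23 was the 1 LD mouse far inside the upper ADV range. The log2 fold change was 0.43 (SE 0.12, FDR 0.0208). Col27a1, the other chain of this small fibrillar branch, had the largest positive value of the 32 genes but missed the threshold. It was at 0.114 to 0.431 FPKM among LD mice (median 0.199) and 0.181 to 0.505 FPKM among ADV mice (median 0.307), with a log2 fold change of 0.50 (SE 0.18, FDR 0.0693). It passed by DESeq2 (FDR 0.0449, a test that 13.1% of all genes passed), and by edgeR without LD mouse 23 (FDR 0.0296) or without LD mouse 26 (FDR 0.0395). Over the 30 mice the levels of Col24a1 and Col27a1 were correlated (Pearson's r = 0.66, Spearman's rho = 0.61, adjusted permutation p = 1.92e-04 and 0.00101 over the 12 pairs chosen after their values were seen). Both levels were higher in ADV mice, and within the LD and ADV groups r was 0.58 and 0.50 (adjusted permutation p = 0.0895 and 0.116). Without ADV mice 24 and 33 the pooled r was 0.56.

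**Figure D2:**
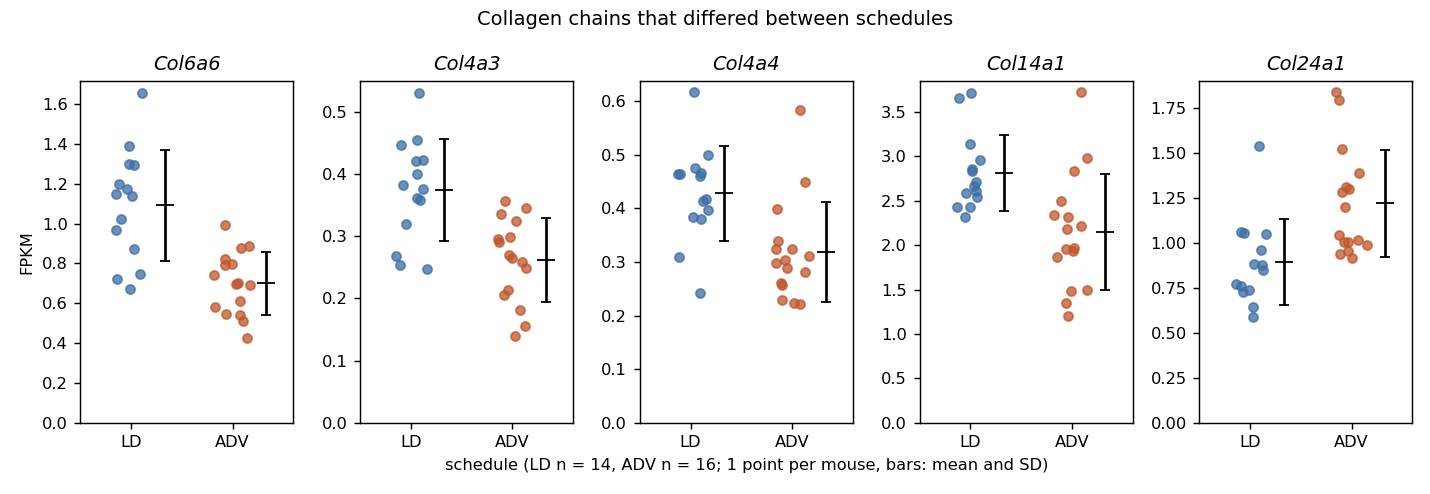
FPKM of the 5 collagen chains with an FDR under 0.05, with 1 point per mouse, and the mean and SD of each group as a bar (LD n = 14, ADV n = 16, vertical axes from 0). Col6a6, Col4a3, Col4a4 and Col14a1 were lower and Col24a1 higher in the ADV group, and the groups overlapped in each panel.

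The abundant fibrillar chains did not pass the test. Col3a1, the chain of reticular fibrils, was at 12.1 to 38.8 FPKM among LD mice (median 23.3) and 14.1 to 28.3 FPKM among ADV mice (median 20.4), with 13 of 16 ADV mice below the LD median. Its log2 fold change was -0.24 (95% confidence interval -0.47 to -0.01, FDR 0.148). The type I chains Col1a1 and Col1a2, the main component of tension-bearing fibrils, had log2 fold changes of -0.13 (-0.36 to 0.11, FDR 0.492) and -0.09 (-0.30 to 0.12, FDR 0.581). These intervals allow a change of either sign for type I. Of the 10 fibrillar chains tested, 1 was higher and none lower in the ADV group, and their median log2 fold change was -0.06.

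The abundant type IV chains did not pass. Col4a1 and Col4a2, the chains of the common basement membrane network, were at 17.4 to 24.3 and 13.7 to 20.0 FPKM among LD mice, and at 18.4 to 36.8 and 13.9 to 30.0 FPKM among ADV mice. ADV mouse 24 alone reached the upper end of both ranges. Their log2 fold changes were 0.10 (95% confidence interval -0.05 to 0.25, FDR 0.373) and 0.07 (-0.08 to 0.23, FDR 0.54). The less abundant Col4a5 was at -0.20 (-0.39 to -0.02, FDR 0.131). Of the 5 type IV chains tested, 2 were lower and none higher, with a median log2 fold change of -0.20. This median turned to 0.08 when genes under 0.5 FPKM were left out, because Col4a3 and Col4a4 then drop out and 3 chains remain.

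The contrast of fibrillar and type IV chains depended on whether chains were weighted by abundance. With each chain counted equally, the mean log2(FPKM + 0.1) of the fibrillar chains minus that of the type IV chains was 0.38 ± 0.26 in the LD group (SD, n = 14, range -0.10 to 0.75) and 0.56 ± 0.19 in the ADV group (SD, n = 16, range 0.25 to 0.81), a difference of 0.17. The shares of summed FPKM went the other way, with less fibrillar and more type IV collagen in the ADV group, since Col1a1, Col1a2, Col3a1, Col4a1 and Col4a2 carry the sums. Both differences were smaller than 1 SD of the LD mice.

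Among type VI chains, only Col6a6 passed the test. Col6a1, Col6a2 and Col6a3, which assemble the common beaded filament and whose mutations cause muscular dystrophy in humans, had log2 fold changes of -0.09 (95% confidence interval -0.26 to 0.08), -0.07 (-0.27 to 0.13) and -0.03 (-0.33 to 0.28). The multiplexins of the basement membrane zone, Col15a1 and Col18a1, which release fragments that act on blood vessels, had values of -0.04 and 0.13. Neither passed (FDR 0.894 and 0.557), and the value of Col18a1 was 0.02 without ADV mouse 24.

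Of the 6 fibril-associated chains tested, Col14a1 was the 1 that passed. Col22a1, which marks the junction of muscle and tendon, was at 2.10 to 3.13 FPKM among LD mice (median 2.55) and 2.09 to 3.48 FPKM among ADV mice (median 2.71), with a log2 fold change of 0.07 (FDR 0.472). The transmembrane chains Col13a1, found at the neuromuscular junction, and Col23a1 had values of 0.25 (FDR 0.153) and 0.24 (FDR 0.112), and for each 12 of 16 ADV mice lay above the LD median. Genes of the other strand overlap 11.66% of the exon bases of Col13a1. The anchoring fibril chain Col7a1 was at -0.17 (FDR 0.261), and the short-chain network chains Col8a1 and Col8a2, known from vessel walls and the cornea, were at 0.05 (FDR 0.827) and 0.06 (FDR 0.853). The other 10 members, not named by the rule for named genes, lay between -0.21 (Col5a3) and 0.28 (Col16a1), with a lowest FDR of 0.129. Unadjusted, 11 of the 32 genes had a p-value under 0.05 by edgeR, against 29.4% of all genes tested.

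**Figure D3:**
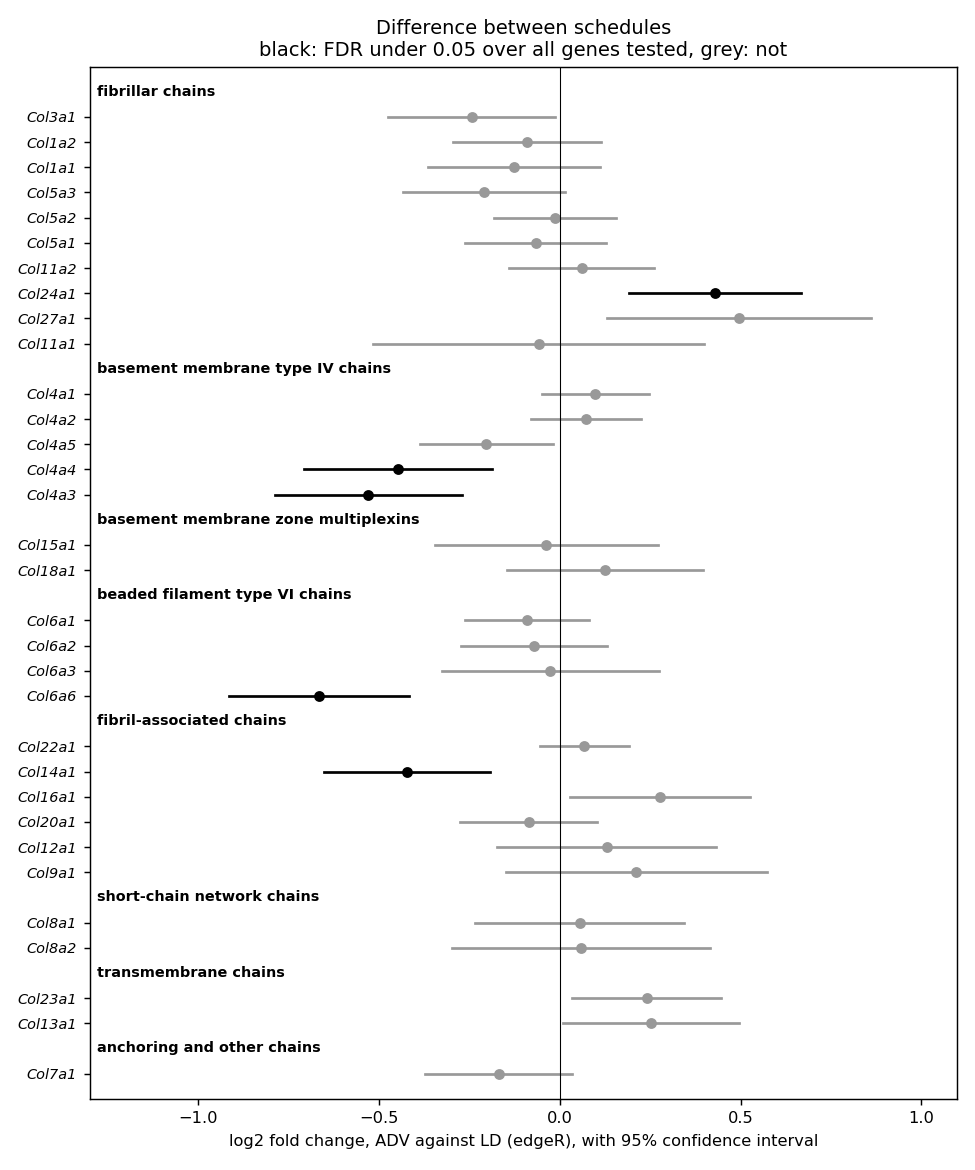
Log2 fold change (ADV against LD, horizontal axis) of the 32 collagen chain genes by class, with 95% confidence intervals from edgeR (black, FDR under 0.05, grey, not). Col6a6 (-0.67), Col4a3 (-0.53), Col4a4 (-0.45), Col14a1 (-0.42) and Col24a1 (0.43) are the black points.

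The chains varied among mice more than most genes. The median coefficient of variation of the FPKM of the 32 genes was 21.7% in the LD group and 23.2% in the ADV group, against 13.2% and 15.03% over all genes tested. In 31 of the 32 genes the spread estimated by edgeR (the biological coefficient of variation) exceeded the median of all genes, 0.127, with 0.285 for Col15a1 and 0.28 for Col6a3. Part of this spread was shared between chains. The ratio of FPKM between chains of the same molecule was most even for Col4a1 to Col4a2 (1.23 ± 0.04 in the LD group and 1.25 ± 0.06 in the ADV group, SD, n = 14 and 16) among the chain ratios computed. It was 1.06 ± 0.09 and 1.04 ± 0.06 for Col6a1 to Col6a2 and 2.20 ± 0.34 and 2.22 ± 0.21 for Col1a2 to Col1a1. Ratios spread further for Col6a1 to Col6a3 (2.77 ± 0.59 and 2.59 ± 0.38) and Col4a4 to Col4a3 (1.16 ± 0.23 and 1.26 ± 0.34).

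Correlations of log2(FPKM + 0.1) over the 30 mice were computed for 17 pairs and adjusted over them (two-sided, 100000 permutations). Of these, 13 pairs had an adjusted p under 0.05. The values were r = 0.96 (rho = 0.96) for Col4a1 and Col4a2, 0.95 (rho = 0.94) for Col6a1 and Col6a2, 0.91 (rho = 0.87) for Col6a1 and Col6a3, 0.91 (rho = 0.85) for Col1a1 and Col3a1 and 0.88 (rho = 0.79) for Col1a1 and Col1a2. For each of these r and rho the permutation p was 1e-05, the smallest these permutations can give (adjusted 2.43e-05 for r and 2.83e-05 for rho), and r stayed at 0.82 or more without the 2 mice farthest out in the first gene. Within the LD group and within the ADV group these values of r were 0.85 to 0.95 and 0.87 to 0.97. Over all annotated transcripts, 311 exon bases of Col4a1 overlap Col4a2 on the other strand, and 311 of Col4a2 overlap Col4a1. Whether counting used strand is not given. Col1a1 also moved with Col6a1, a chain of another class, as closely as with Col1a2 by value (r = 0.89, rho = 0.87, adjusted p = 2.43e-05 and 2.83e-05), with 0.91 and 0.89 within the groups and 0.84 without LD mouse 23 and ADV mouse 24. Col5a1 and Col5a2, partners in type V collagen, had r = 0.76 (rho = 0.66, adjusted p = 2.43e-05 and 2.67e-04), with 0.72 and 0.82 within the groups and 0.67 without LD mice 23 and 32.

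Other pairs across classes had lower values. For Col1a1 and Col4a1, a fibrillar and a basement membrane chain, r was 0.49 (adjusted permutation p = 0.0107) and rho 0.26 (adjusted p = 0.207). Without LD mouse 23 and ADV mouse 24, r was 0.29 (adjusted p = 0.192), so this relation rests on those mice, and within the groups it was 0.53 and 0.62. The relation of Col4a1 with Col15a1 was r = 0.58 (rho = 0.46, adjusted p = 0.00119 and 0.0198), and 0.38 (adjusted p = 0.0674) without LD mouse 32 and ADV mouse 24. Col1a1 and Col12a1, a fibril-associated chain, had r = 0.45 (rho = 0.45, adjusted p = 0.0188 and 0.0219), with 0.08 within the LD group and 0.82 within the ADV group. The difference between these groups was not tested, and without LD mouse 23 and ADV mouse 24 the pooled r was 0.43.

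The chaperone Serpinh1 (HSP47), which binds procollagen during folding, was correlated with Col1a1 across mice (r = 0.61, rho = 0.56, adjusted permutation p = 5.29e-04 and 0.00306), with r = 0.73 within the LD group, 0.64 within the ADV group and 0.51 without LD mouse 23 and ADV mouse 24. With Col4a1 its r was 0.44 (rho = 0.39, adjusted p = 0.0188 and 0.0501), and 0.25 without LD mouse 32 and ADV mouse 24. Sparc, a collagen-binding matrix protein, gave r = 0.65 with Col1a1 (rho = 0.57, adjusted p = 3.19e-04 and 0.00306), with 0.85 and 0.75 within the LD and ADV groups and 0.50 without LD mouse 23 and ADV mouse 24. Col1a1 with the muscle-tendon junction chain Col22a1 (r = 0.17, rho = 0.15), the tenocyte marker Tnmd (0.22 and 0.22), or the fibroblast marker Pdgfra (0.11 and 0.10), and Col4a1 with the endothelial marker Pecam1 (0.37 and 0.34), did not pass over the 30 mice (lowest adjusted permutation p = 0.0613). Within the ADV group Col4a1 with Pecam1 (r = 0.62, adjusted permutation p = 0.0128) and Col1a1 with Tnmd (r = 0.57, adjusted p = 0.032) passed, against -0.12 and -0.06 within the LD group. By rank these ADV values were lower (rho = 0.54 and 0.45). ADV mouse 24 was the highest of its group for each of these genes, and r within the group was not computed without it. The difference between the groups was not tested.

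**Figure D4:**
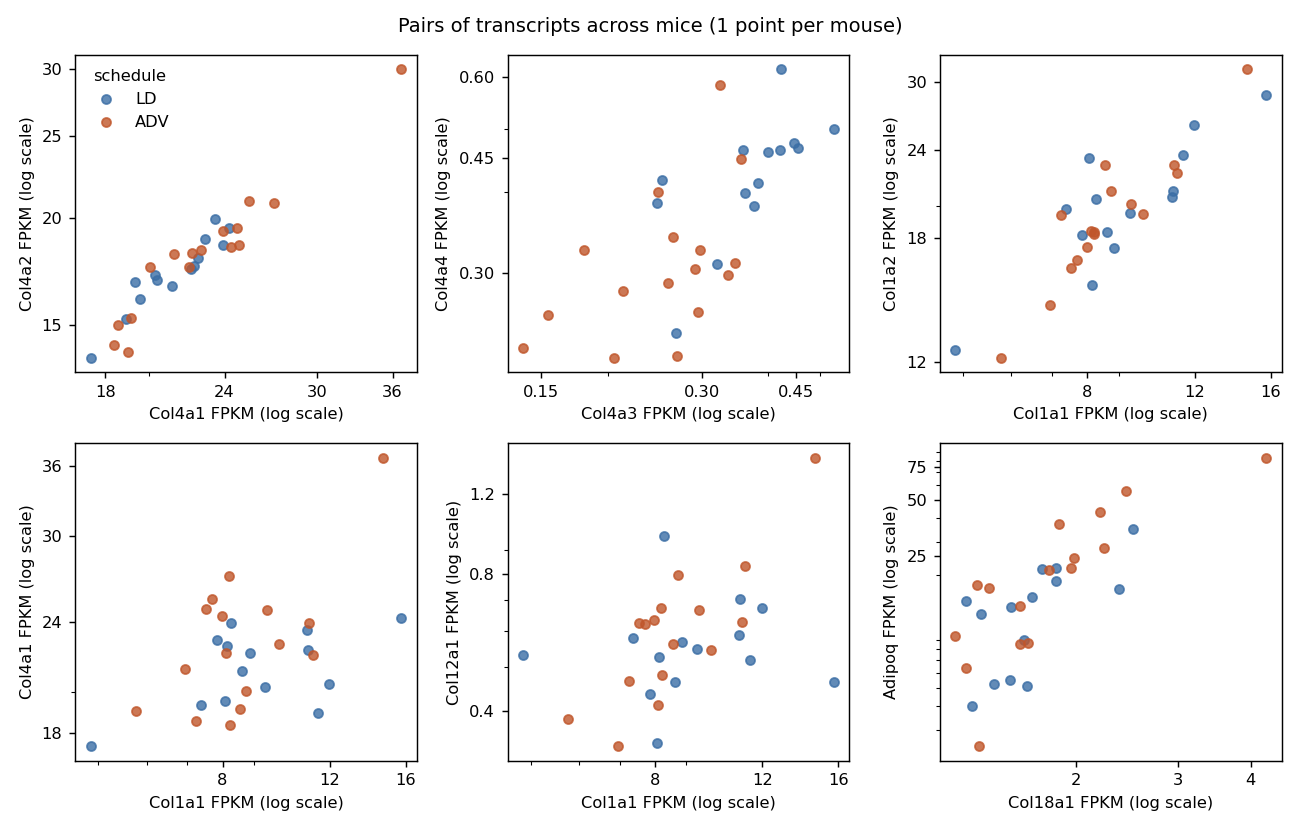
FPKM of 6 pairs of genes on log axes, with 1 point per mouse (blue LD, red ADV). Col4a1 and Col4a2 lie close to a line (r = 0.96), Col1a1 and Col4a1 scatter widely (r = 0.49), and Col18a1 and Adipoq lie along a broader line (r = 0.77).

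A second family of 12 pairs was chosen after the values had been seen. Col4a3 and Col4a4 were correlated (r = 0.71, rho = 0.72, adjusted permutation p = 4e-05 and 8e-05), with 0.66 and 0.51 within the LD and ADV groups, as were Col6a6 and Col14a1 (r = 0.63, rho = 0.61, adjusted p = 4.2e-04 and 0.00101, 0.46 and 0.47 within the groups). All these chains were lower in ADV mice, and within the groups only Col4a3 and Col4a4 in the LD group passed (adjusted permutation p = 0.0481). Without the 2 mice farthest out in the first gene, r was 0.66 and 0.61. Col6a3 and Col15a1 stood closest in this family (r = 0.91, rho = 0.88, adjusted p = 4e-05 and 6e-05, 0.93 and 0.88 within the groups and 0.87 without LD mouse 32 and ADV mouse 31). Col18a1 moved with the adipocyte gene Adipoq (r = 0.77, rho = 0.77, adjusted p = 4e-05 and 6e-05), with 0.65 and 0.81 within the groups and 0.70 without LD mouse 23 and ADV mouse 24, whereas Col6a3 (r = 0.33, rho = 0.32) and Col15a1 (r = 0.20, rho = 0.18) did not pass with it (adjusted p = 0.0757 and 0.289 for r).

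Cell type markers were read beside the chains. The 12 fibroblast markers summed to 521 to 853 FPKM among LD mice and 535 to 777 FPKM among ADV mice. Gsn alone (mean 453 FPKM over all mice) made up most of these sums, so they say little of the other markers. Of the 12 log2 fold changes, 5 were above 0 and 7 below. No marker of this list was called higher and 1 was lower in the ADV group, Pdgfra (log2 fold change -0.24, SE 0.06, FDR 0.0185), with 14 of 16 ADV mice below the LD median. Pdgfra marks the fibro-adipogenic cells of muscle, and its level moved with that of Col14a1 (r = 0.69, rho = 0.57, adjusted permutation p = 1.2e-04 and 0.00196, 0.25 and 0.63 within the LD and ADV groups, 0.54 without ADV mice 25 and 29) and less with that of Col6a6 (r = 0.37, rho = 0.30, adjusted p = 0.049 and 0.112, -0.14 and 0.11 within the groups, 0.42 without LD mouse 23 and ADV mouse 31). Both pairs are among the 12 chosen after their values were seen. All these genes were lower in ADV mice, so the pooled p-values also reflect that shared difference. Within the groups only Col14a1 with Pdgfra in the ADV group passed (adjusted permutation p = 0.0348, against 0.49 in the LD group). The part of Pdgfra in the fall of these chains was not tested. The 10 adipocyte markers summed to 268 to 462 FPKM in the LD group and 276 to 827 in the ADV group. Fabp4 (mean 201 FPKM over all mice) contributed most to these sums, and Adipoq had a mean of 19.9 FPKM. All 10 had log2 fold changes above 0 (median 0.44), and 2 of 10 were called higher. Of the Schwann cell markers, 9 of 10 were tested. All 9 were above 0 (median 0.44), with 1 called higher. Of 8 tenocyte markers tested 1 was higher, Egr1 (log2 fold change 1.45, FDR 0.00947), while Tnmd (FDR 0.137) and Scx (FDR 0.857) did not pass. Of 10 endothelial markers 2 were higher (Emcn and Pecam1), and of 10 pericyte and smooth muscle markers 1 (Tagln). None was lower in these lists. Among all genes tested, 5.03% were called higher. Above 0 were 6 of the 8 tenocyte, 8 of the 10 endothelial and 8 of the 10 pericyte and smooth muscle markers. None of the 10 macrophage and none of the 10 muscle fiber markers passed in either direction. Below 0 were 9 of the 10 macrophage markers (median -0.20) and 4 of the 10 muscle fiber markers (median 0.03). Whether the share of any cell type differed was not tested. The muscle fiber markers summed to 57224 to 77466 FPKM over the mice. Of 10 cartilage and bone markers 2 were tested and neither passed, and Matn1 was at 0 in all mice.

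Genes that fold, process, degrade, sense or bind collagen passed the test about as often as other genes, 6 of 63 tested or 9.52% at an FDR under 0.05 against 10.1% of all genes. This FDR, with no limit on fold, is used for the lists here. Of 19 tested folding and modification genes, 2 were lower and none higher, with log2 fold changes of -0.15 for Mia3 (FDR 0.0362) and -0.14 for Sec23a (FDR 0.0403), both of which carry procollagen out of the endoplasmic reticulum. P4hb, the most abundant of them and a subunit of prolyl hydroxylase, was at 67.5 ± 3.73 FPKM among LD mice and 68.1 ± 3.82 FPKM among ADV mice (SD, n = 14 and 16). Serpinh1 was at 0.32 (FDR 0.246). Leaving out single mice ended the call of Mia3 in 9 and of Sec23a in 16 of the 30 fits.

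Of 10 processing and cross-linking genes, Loxl4, a lysyl oxidase that cross-links collagen, was lower. Its level was 0.217 to 0.591 FPKM among LD mice and 0.133 to 0.471 FPKM among ADV mice, with all 16 ADV mice below the LD median (log2 fold change -0.59, SE 0.15, FDR 0.0134). The other 9 did not pass, and Pcolce, the most abundant, which aids removal of the C-terminal propeptide, was at 18.6 ± 2.56 and 18.9 ± 3.60 FPKM (SD, n = 14 and 16).

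Of 12 degradation genes, 1 was higher and 1 lower. Mrc2, the receptor through which cells take up collagen fragments, was at 1.61 to 2.65 FPKM among LD mice and 1.82 to 6.97 FPKM among ADV mice, where ADV mouse 24 was the highest (log2 fold change 0.49, SE 0.13, FDR 0.0187). With the trend of counts on GC content removed, its FDR was 0.0715. Mmp9, a gelatinase, was at 0.824 to 3.15 FPKM among LD mice and 0.569 to 1.64 FPKM among ADV mice (log2 fold change -0.55, SE 0.17, FDR 0.0356), and this call was lost in 7 of the 30 fits that left out a mouse. Timp2, the most abundant, an inhibitor of matrix metalloproteinases, was at -0.19 (FDR 0.0557).

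None of the 9 collagen receptors tested passed, and the integrin subunit Itgb1, the most abundant, was at 44.5 ± 3.65 FPKM among LD mice and 44.5 ± 3.60 FPKM among ADV mice (SD, n = 14 and 16). Of 13 fibril-binding proteoglycans and glycoproteins, Ogn, a small leucine-rich proteoglycan, was lower (log2 fold change -0.33, SE 0.09, FDR 0.0212). After removal of the GC trend its value was -0.14 (FDR 0.206). Dcn, which encodes decorin and was the most abundant, had a log2 fold change of -0.11 (FDR 0.129).

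Of 18 genes of the TGF-beta signal, which drives fibrillar collagen transcription, 2 were higher and 1 lower. Ccn2 (CTGF), a matricellular target of TGF-beta, had a log2 fold change of 0.66 (SE 0.21, FDR 0.0405), and 14 of the 30 fits that left out a mouse ended this call. Smad7, an inhibitor of the pathway, was at 0.38 (SE 0.11, FDR 0.0265) with all 16 ADV mice above the LD median. Ltbp1, which stores latent TGF-beta in the matrix, was at -0.21 (SE 0.06, FDR 0.0223). Ltbp4, the most abundant of the list, was at 0.12 (FDR 0.149).

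Clock genes differed between the groups. Of 5 genes that peak with Bmal1, 3 were higher and none lower in ADV mice, and all 7 genes that peak opposite were lower. A clock score was formed for each mouse as the mean log2(FPKM + 0.1) of the first list minus that of the second. It was -1.61 ± 0.80 in the LD group (SD, n = 14, range -2.93 to -0.07) and -0.17 ± 0.49 in the ADV group (SD, n = 16, range -1.56 to 0.53). Only 10 of 16 ADV mice lay inside the LD range. With the score as a covariate, edgeR called none of the 32 genes (4 had an unadjusted p under 0.05) and none of the 12915 genes tested (1358, or 10.5%, had an unadjusted p under 0.05). The log2 fold changes were then -0.69 for Col6a6 (SE 0.18, FDR 0.253) and 0.42 for Col24a1 (SE 0.18, FDR 0.403), close to their values without it. They were -0.35 for Col4a3 (SE 0.19, FDR 0.531), -0.23 for Col14a1 (SE 0.17, FDR 0.625) and -0.14 for Col4a4 (SE 0.18, FDR 0.809), smaller than without it. Over the 30 mice the score was correlated with Col4a3 (r = -0.58, rho = -0.57, adjusted permutation p = 0.00137 and 0.00201), Col6a6 (r = -0.48, rho = -0.46, adjusted p = 0.0116 and 0.0179) and Col24a1 (r = 0.44, rho = 0.37, adjusted p = 0.0188 and 0.0553). These pairs are among the 12 chosen after their values were seen. The score and these chains all differed between the groups, so the pooled p-values also reflect that difference. Without the 2 mice farthest out in the gene, r was -0.60, -0.43 and 0.41. Within the groups of 14 and 16 mice none of these relations passed (lowest adjusted permutation p = 0.309), which does not show that they were absent. In the LD and ADV groups r was -0.40 and -0.05 for Col4a3, 0.28 and -0.31 for Col6a6, and 0.24 and -0.29 for Col24a1. The score and the schedule cannot be told apart in these samples.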

How the data were processed

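Libraries of gastrocnemius muscle from 14 LD and 16 ADV mice, 1 per mouse, were grouped by their labels. The authors trimmed paired reads, mapped them to GRCm39 with STAR 2.7.10a, removed reads of mapping quality under 10 and counted exons of UCSC canonical transcripts with HOMER 4.11 (versions from the submitters' processing notes). Whether counting used strand is not given in the sources used here. The deposited raw values are estimated counts, each mate giving 0.5 read, and 14.8% were not whole, so they were rounded. The authors also deposited FPKM for the same rows. Totals were 19015401 to 28512674 in the LD group and 18875468.5 to 25699603.5 in the ADV group.

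The longest row per symbol with a mean over 20 reads was kept. All 12915 genes were tested with edgeR 4.0.16 (R 4.3.3; TMM, quasi-likelihood F test), with calls at FDR under 0.05 and over 1.3-fold. DESeq2 1.42.0, limma 3.58.1 on log2(FPKM + 0.1) and log2(FPKM + 1), other scalings and filters, a replicate block, the clock score, removal of the GC trend and leaving out each mouse were alternatives. Correlations and their 100000 permutations were computed with numpy 2.4.6, with ranks from scipy 1.17.1. On simulated counts for the 12915 genes of ADV against LD with 200 changed genes, edgeR called 196, of which 186 were changed. The simulation drew genes independently and with the same spread for all, so it does not give the error rate of calls in these data. Within each group, no pair of libraries agreed within sampling noise (smallest chi-square per degree of freedom 9.97). Members, lists and named genes were chosen with earlier results of these data known. Named were chains with FDR under 0.05, the type I, III, IV (a1, a2) and VI (a1 to a3) chains, in each class the 2 most abundant and the most changed, and in each pathway list the most abundant gene and those with FDR under 0.05. Promoter windows came from RefSeq (GRCm38.p6). The hour of kill was not used here.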

Additional observations from a re-analysis of the deposited data

How the results depend on the processing

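Pathway genes are counted here with the 1.3-fold limit as well, which 5 passed (Loxl4, Mmp9, Mrc2, Ccn2 and Smad7). The 5 chains were called in each of the 30 fits that left out a mouse (5 to 6 calls), with DESeq2 (6 calls, Col27a1 added), with relative log expression or library size scaling, with counts summed per symbol and with the GC trend removed. With a mean over 0.5 FPKM required, 3 chains were called at the FDR alone and 3 with the fold limit, since Col4a3 and Col4a4 were among the 8 chains not tested, and the type IV median was 0.0756. limma on log2(FPKM + 1) called 0 chains with the fold limit, which that pseudocount shrinks for low genes, and 5 by FDR, and it called 123 genes in all (105 higher, 18 lower) and 2 of the pathway lists. limma on log2(FPKM + 0.1) called 192 genes higher and 56 lower, against 185 and 104 with edgeR. Without a read minimum 2 of the pathway lists were called. With the GC trend removed 181 genes were called, against 289 as reported, and 2 pathway genes.

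The clock score as a covariate left 0 chains, 0 genes and 0 pathway genes called by edgeR. Leaving out single mice gave 206 to 345 genes called, 2 to 7 pathway genes, a fibrillar median of -0.12 to -0.02, a type IV median of -0.24 to -0.16 and a fibrillar minus type IV level of 0.14 to 0.20. Pathway calls fell to 2 without LD mouse 23 or 30 or ADV mouse 24, 25 or 32, and to 3 without LD mouse 28, 32, 33 or 35 or ADV mouse 29 or 33. Ccn2 was lost without LD mouse 23, 27, 28, 30, 32, 33, 35 or 36 or ADV mouse 21, 24, 25, 29, 32 or 33 (FDR up to 0.0762), Mmp9 without LD mouse 23, 26 or 30 or ADV mouse 24, 25, 32 or 34 (up to 0.0762), Mia3 without LD mouse 23, 28, 30, 33 or 35 or ADV mouse 24, 25, 33 or 34 (up to 0.065), and Sec23a in 16 fits (up to 0.0793). None of the 5 chains changed sign in any fit. Of the named chains that did not pass, 9 changed sign in at least 1 fit: Col1a2, Col4a1, Col4a2, Col6a3, Col8a1, Col8a2, Col13a1, Col15a1 and Col18a1.

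The labels do not say whether mice of the same number were paired. Deviations of the 14 same-numbered pairs correlated at -0.28 to 0.46 (median 0.00), 6 of 14 over 0.1. The median over pairs of unlike number was also 0.00, and 3 of 14 LD mice correlated best with their own number. No test was run on these values, so pairing was not excluded. With the number as a replicate block in 28 libraries, 3 chains were called (3 also by FDR alone), 149 genes and 1 pathway gene, and Col24a1 (FDR 0.0675) and Col4a4 (FDR 0.0664) missed the threshold. The same 28 libraries without the block gave 4 chains (Col4a4 missed, FDR 0.0667, and Col24a1 passed, FDR 0.0484), 166 genes and 1 pathway gene. The block with the GC trend removed, chosen after seeing the data, gave 3 chains (3 by FDR alone), 88 genes and 1 pathway gene. The causes of these shifts were not tested. A chain near the minimum of 20 reads rests on few counts per mouse (10 to 55 for Col11a1, whose log2 fold change had a 95% confidence interval of -0.52 to 0.40).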
